A study of Mus musculus with 9 samples.

Results

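The glycolysis and lactate genes are 34 listed mouse genes that carry glucose into the cell, split it to pyruvate, turn pyruvate into lactate or hold pyruvate back from the mitochondrion. They were taken by name, as every probe annotated to one of the 34 symbols. Of the 45281 probes on the array, 52 carry such an annotation, and they cover 30 of the 34 genes, among 19057 genes named on the array. No probe is annotated to the other 4, Hk2, Gpi1, Pfkfb1 and Eno1, so 2 early steps and the main enolase gene are not read here. Probes of 21 genes were bright enough to be tested, and those of 9 genes were not.

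The regions compared were the chordoneural hinge (CNH), the tailbud mesoderm (TBM) and the presomitic mesoderm (PSM), all dissected from wild-type mouse embryos at E10.5. The CNH is the part of the tailbud where progenitors of the axial tissues lie, the TBM next to it holds precursors of the paraxial mesoderm, and the PSM is the tissue whose front end buds off somites. Pieces of a region from many embryos were pooled, and biotin-labelled RNA amplified from each pool was measured on Illumina mouse Ref6v2 BeadArrays, 3 per region, numbered replicate 1 to 3. Of the 3, by the study's account 2 were biological replicates and 1 was technical, but which one is not said, and the CD1 and C57Bl/6J mothers of the embryos are not assigned to samples. All 9 arrays therefore entered each fit as separate samples, and the p-values measure the spread between these arrays, part of which may be technical.

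In glycolysis, glucose enters through transporters of the Slc2a family, is phosphorylated by hexokinase and, after phosphofructokinase has set the committed step, is split by aldolase into triose phosphates. The later enzymes, from glyceraldehyde phosphate dehydrogenase to pyruvate kinase, return ATP. Lactate dehydrogenase then makes lactate, which leaves through Slc16a transporters, or pyruvate dehydrogenase passes the carbon into the citrate cycle, a step that pyruvate dehydrogenase kinases shut. In chick and mouse embryos the tailbud is known for high glycolytic activity that declines along the PSM towards the somites.

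Levels below are log2 intensities after background correction and quantile normalization, on a scale where a probe without signal lies near 4. A probe's level depends on its sequence, so a value is set only against the same probe in another region. A gene is represented by its brightest tested probe. Rose, fell and called refer to a probe with an adjusted p under 0.05 (limma, Benjamini-Hochberg over all 12437 tested probes) and a change of at least 1.5-fold. A fold change is given on the log2 scale as CNH minus PSM, TBM minus PSM or CNH minus TBM, and ± is its standard error unless SD is written.

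The median probe signal lay between 76.8 and 80.4 for replicates 1 and 2, and between 63.0 and 67.1 for replicate 3, and 13621 to 14809 probes were detected per array. Replicate 3 stood apart in every region: its correlation with replicates 1 and 2 of the same region was 0.821 to 0.866, against 0.994 to 0.995 between replicates 1 and 2. The replicate number was therefore a term in the fit, and members whose call rests on a replicate 3 array are named with their values below. The dissection was read from marker genes: all 10 tested axial progenitor markers rose in CNH over PSM (median 3.03), and 6 of 8 tested presomitic and somite markers were lower in CNH than in PSM (median -3.49). All 3 arrays detected 10 of the first list in CNH and 7 in PSM, and 4 of the second in CNH and 8 in PSM. Markers tested only through their brighter region could hardly go the other way, so these counts are a description. The second median includes values near background.

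In CNH, 7 of the 21 tested member genes rose over PSM and 0 fell, a share of 33.3% against a background of 7.43% of all 7820 named genes called higher in this comparison and 4.85% called lower. Those that rose were the glucose transporters Slc2a1 and Slc2a3, the phosphofructokinase Pfkl, the aldolase Aldoc, the phosphoglycerate kinase Pgk1, the phosphoglycerate mutase Pgam2 and the enolase Eno3. In TBM, 5 of 21 rose over PSM and 0 fell, 23.8% against a background of 5.92% called higher and 4.54% called lower: Slc2a3, Aldoa, Aldoc, Pgk1 and Eno3. Between CNH and TBM, 1 of 21 was called, Pgam2, which was higher in CNH (4.76%, against a background of 0.908% called higher and 0.294% called lower). Pgam2 was tested only through its signal in CNH, so this share is no result about the members. The first and second of these comparisons share the PSM arrays, so their lists of genes are not independent of each other.

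The median fold change of the 21 genes was 0.34 in CNH over PSM, against -0.04 over all named genes, and 0.38 in TBM over PSM, against -0.02. Between CNH and TBM it was 0.02, against -0.02 over all genes. Without the fold limit, 10 members were higher and 0 lower in CNH than in PSM at an adjusted p under 0.05 (background 11.3% and 8.9%), and 7 were higher and 0 lower in TBM than in PSM (background 8.58% and 6.7%). At an unadjusted p under 0.05 these counts were 12 higher and 1 lower for CNH (background 16% and 16.6%), and 13 higher and 0 lower for TBM (background 14.3% and 12.6%). Since Pgam2 and Bpgm passed the filter on dim probes without being detected on all PSM arrays, the count was repeated on the 19 members detected on all 9 arrays: 6 rose and 0 fell in CNH over PSM (background 6.01% higher and 3.87% lower), and 5 rose and 0 fell in TBM over PSM (background 5.06% and 3.47%). Between CNH and TBM limma called 0 of these 19 (background 0.663% higher and 0.286% lower). At an unadjusted limma p under 0.05, 3 were higher and 0 lower. The share over all genes at that limit was not counted here, so this is no result about the members. Without the replicate number in the model, 2 members were called in CNH over PSM (Slc2a3 and Eno3), 1 in TBM over PSM (Eno3) and 0 between CNH and TBM.

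**Figure D1:**
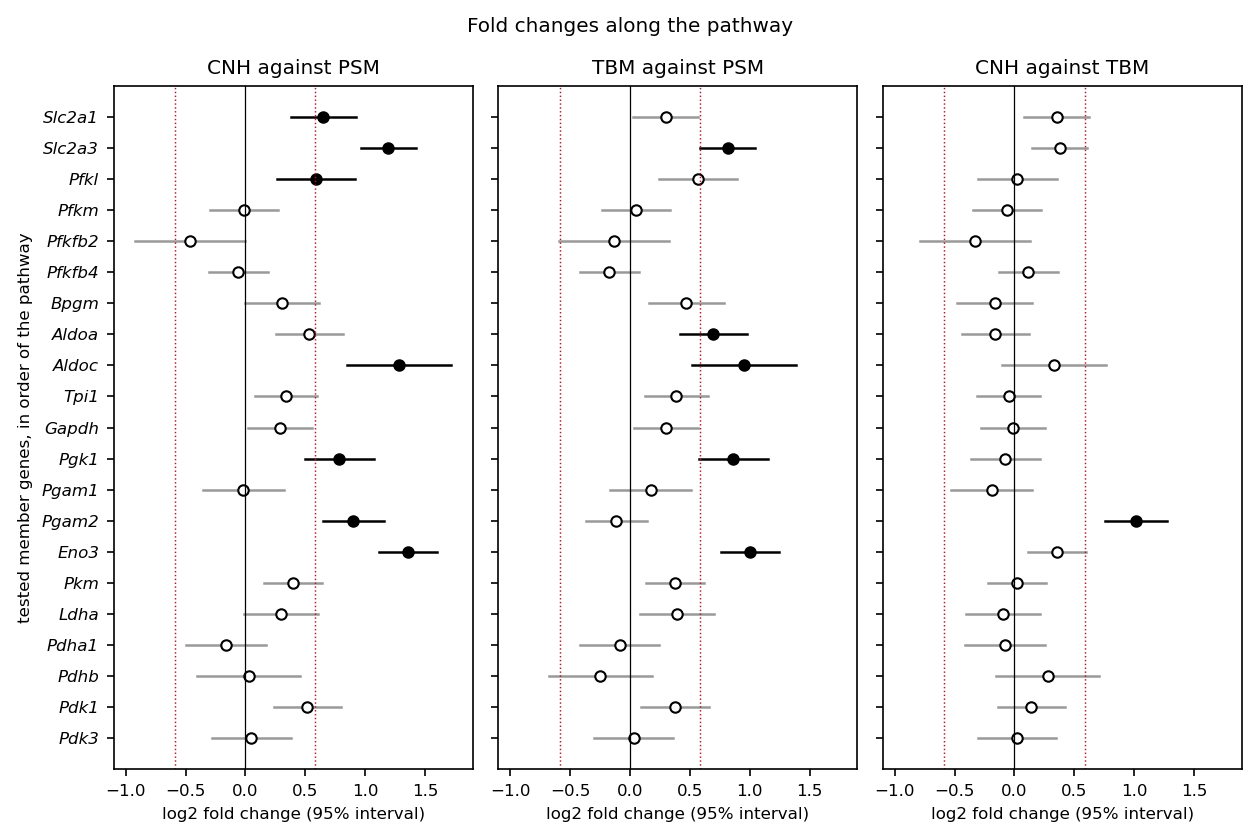
Log2 fold change of each of the 21 tested member genes, ordered from glucose uptake at the top to pyruvate dehydrogenase and its kinases at the bottom, for CNH against PSM, TBM against PSM and CNH against TBM. Points are fitted values, bars are 95% intervals, filled points were called, and dotted lines mark 1.5-fold. Filled points lie to the right of 0 in all panels, 7 in CNH against PSM, 5 in TBM against PSM and 1 in CNH against TBM, and Eno3 has the largest value in both comparisons with PSM (1.36 and 1.00).

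Glucose uptake was represented by both of its listed genes. Slc2a3 encodes GLUT3, a high-affinity glucose transporter. Its level was 12.13, 12.15 and 12.38 on the CNH arrays, 11.73, 11.82 and 11.99 on the TBM arrays, and 10.86, 10.93 and 11.28 on the PSM arrays. The 3 regions did not overlap, with CNH highest and PSM lowest. Slc2a3 rose by 1.19 ± 0.103 in CNH over PSM (2.29-fold, adjusted p = 2.84e-05) and by 0.82 ± 0.103 in TBM over PSM (1.76-fold, adjusted p = 0.000438). Every CNH array was above every TBM array, by 0.38 ± 0.103 in the fit, a difference that was not called (adjusted p = 0.146). The call in CNH over PSM held under all 21 alternative settings.

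Slc2a1 encodes GLUT1, the transporter that most growing cells use. It measured 11.26, 11.29 and 11.39 on the CNH arrays, 10.78, 10.78 and 11.32 on the TBM arrays, and 10.47, 10.52 and 11.01 on the PSM arrays. All CNH arrays lay above all PSM arrays, whereas TBM overlapped with PSM through TBM replicates 1 and 2. The difference was 0.65 ± 0.123 in CNH over PSM (1.57-fold, adjusted p = 0.00427), 0.30 ± 0.123 in TBM over PSM (adjusted p = 0.155) and 0.35 ± 0.123 in CNH over TBM (adjusted p = 0.254). Slc2a1 stood close to the fold limit: it was 0.58 in CNH over PSM without CNH replicate 1 and 0.58 without CNH replicate 2, and no longer called in either case. The call was also lost with replicates 1 and 2 averaged as 1 sample (0.58), with median centring (0.56) and on the deposited normalized values (0.58).

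The next 2 steps are largely unread. Hk1, a hexokinase that traps glucose as glucose 6-phosphate, has 2 probes, and neither was detected on any array. Its means were 4.41 and 4.53 in CNH, 4.29 and 4.46 in TBM, and 4.31 and 4.36 in PSM, at the level of probes without signal.

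Phosphofructokinase makes the committed step of the pathway and has a liver-type, a muscle-type and a platelet-type subunit, encoded by Pfkl, Pfkm and Pfkp. Pfkl measured 11.52, 11.54 and 9.51 on the CNH arrays, 11.50, 11.56 and 9.43 on the TBM arrays, and 11.18, 11.13 and 8.48 on the PSM arrays. Relative to the mean of replicates 1 and 2, its replicate 3 arrays lay at -2.02, -2.10 and -2.68 in CNH, TBM and PSM, far more than any difference between regions, but within each replicate number CNH and TBM were above PSM. Pfkl rose by 0.59 ± 0.147 in CNH over PSM (1.51-fold, adjusted p = 0.0190), just past the fold limit, and was 0.57 ± 0.147 higher in TBM than in PSM (1.48-fold, adjusted p = 0.0280), just short of it. In CNH over PSM it was 0.47 without CNH replicate 3 and 0.39 without PSM replicate 3, not called in either case, and 0.37 without all 3 arrays of replicate 3. In TBM over PSM it was 0.69 without PSM replicate 1 and 0.65 without PSM replicate 2, called in both cases. A second, dim Pfkl probe was detected on 4 arrays and not tested, with means of 4.97 in CNH, 5.05 in TBM and 4.90 in PSM. Its CNH minus PSM differences were 0.08, -0.02 and 0.13 in replicates 1, 2 and 3.

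Pfkm, read by 3 tested probes, was not called. Its brightest probe averaged 8.95 ± 0.590 in CNH, 9.01 ± 0.401 in TBM and 8.97 ± 0.288 in PSM (SD, n = 3), with a difference of -0.01 ± 0.127 in CNH over PSM (95% interval -0.30 to 0.27). Pfkp had 3 probes, detected on at most 6 of the 9 arrays, and none passed the filter. Its brightest probe gave 5.49, 5.83 and 4.66 on the CNH arrays, 5.91, 6.29 and 4.48 on the TBM arrays, and 5.31, 5.04 and 4.36 on the PSM arrays.

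None of the 3 tested genes on side branches around this step was called. Pfkfb2 and Pfkfb4 make and break fructose 2,6-bisphosphate, the activator of phosphofructokinase. Pfkfb2 measured 5.18, 5.01 and 5.68 in CNH, 5.41, 5.99 and 5.46 in TBM, and 5.94, 5.62 and 5.71 in PSM, and it had the lowest fitted value of all members in CNH over PSM, -0.46 ± 0.205 (adjusted p = 0.155). It was lower in CNH in all replicate numbers, and it was called lower, at -0.71 (adjusted p = 0.0431), once CNH replicate 3 was left out. Only 1 of the 3 Pfkfb2 probes was tested, at a dim level, and the others were detected on no array. Pfkfb4 differed by -0.06 ± 0.110 in CNH over PSM and by -0.17 ± 0.110 in TBM over PSM, neither of them called. Pfkfb3, a kinase of the same family, was detected on 1 array, and Tigar, a phosphatase that opposes it, on 0.

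Bpgm makes 2,3-bisphosphoglycerate, which in red cells lowers the oxygen affinity of haemoglobin. It was detected on all CNH and TBM arrays and on no PSM array, with 4.88, 5.0 and 5.15 in CNH, 5.14, 5.36 and 5.02 in TBM, and 4.60, 4.56 and 4.95 in PSM. As the probe was not well above background in PSM, the difference is a bound: Bpgm was at least 1.06-fold higher in CNH (adjusted p = 0.169) and at least 1.19-fold higher in TBM (adjusted p = 0.0513) than in PSM. The TBM comparison passed the threshold without TBM replicate 3 (adjusted p = 0.0158) and without PSM replicate 3 (adjusted p = 0.0240), still against a region where no array detected the probe.

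Aldolase splits fructose 1,6-bisphosphate. Aldoa, the form most tissues use, measured 11.07, 11.12 and 11.47 in CNH, 11.21, 11.26 and 11.66 in TBM, and 10.40, 10.41 and 11.24 in PSM. PSM replicate 3 overlapped with arrays of both other regions, while within each replicate number PSM was the lowest. Aldoa rose by 0.69 ± 0.125 in TBM over PSM (1.62-fold, adjusted p = 0.00387). In CNH over PSM it was 0.53 ± 0.125 higher (1.45-fold, adjusted p = 0.0142), short of the fold limit, and it was called at 0.62 without CNH replicate 3 and at 0.68 without PSM replicate 3.

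Aldoc, an aldolase best known from brain, rose in both comparisons with PSM. It measured 5.98, 6.04 and 6.99 in CNH, 5.70, 5.51 and 6.83 in TBM, and 4.91, 5.07 and 5.18 in PSM, with every PSM array below every array of the other regions. The rise was 1.28 ± 0.195 in CNH over PSM (2.43-fold, adjusted p = 0.00117) and 0.95 ± 0.195 in TBM over PSM (1.94-fold, adjusted p = 0.00812). The call in TBM over PSM was lost without TBM replicate 3 (0.74, adjusted p = 0.0548), without background correction (0.46), with an offset of 50 (0.57) and without the filter on dim probes (adjusted p = 0.0755). It held at 0.61 without all 3 arrays of replicate 3. In CNH over PSM the call held at 0.64 without background correction and at 0.79 with an offset of 50. On the deposited normalized values Aldoc was 0.24 in CNH over PSM and 0.17 in TBM over PSM, not called in either comparison. A second Aldoc probe was at the level of probes without signal, with means of 4.28 in CNH, 4.33 in TBM and 4.47 in PSM.

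Tpi1 interconverts the 2 triose phosphates that aldolase makes. Its brightest probe was 12.97, 12.91 and 12.92 in CNH, 12.93, 12.87 and 13.16 in TBM, and 12.64, 12.64 and 12.51 in PSM, with PSM below both other regions on every array. The difference was 0.34 ± 0.117 in CNH over PSM (adjusted p = 0.0750) and 0.39 ± 0.117 in TBM over PSM (adjusted p = 0.0551), not called. The other tested Tpi1 probe was 0.47 and 0.52 higher, at an adjusted p of 0.0123 for CNH and 0.00847 for TBM, and short of the fold limit in both.

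**Figure D2:**
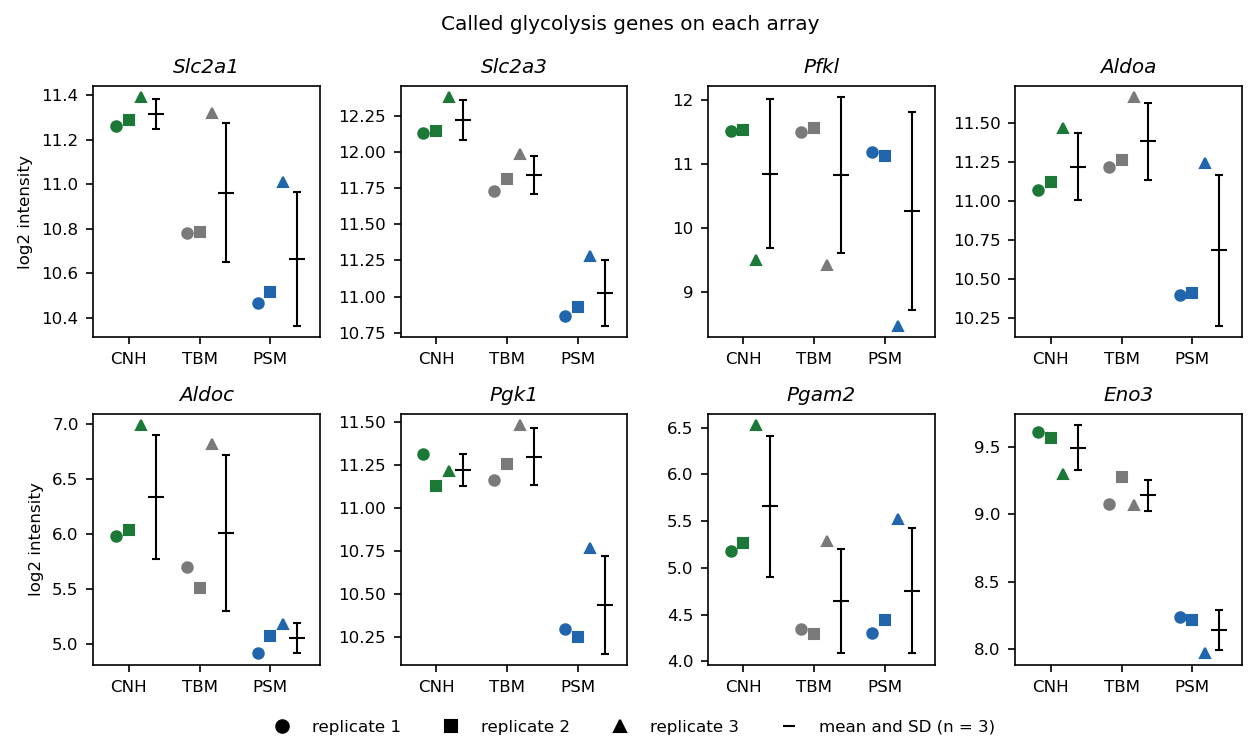
Log2 intensity on each of the 9 arrays for the 8 member genes called in at least 1 comparison, with CNH in green, TBM in grey and PSM in blue. The shape gives the replicate number, bars are mean and SD (n = 3), and each panel has its own vertical range, which does not start at 0. Eno3 and Slc2a3 separate PSM from both other regions on all arrays, whereas the replicate 3 arrays of Pfkl lie at -2.02 to -2.68 relative to the mean of the others.

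Pgk1 makes the first ATP of the pathway. Its level was 11.32, 11.13 and 11.22 in CNH, 11.16, 11.26 and 11.48 in TBM, and 10.30, 10.25 and 10.77 in PSM. CNH and TBM arrays were intermixed and all lay above the PSM arrays. Pgk1 rose by 0.78 ± 0.129 in CNH over PSM (1.72-fold, adjusted p = 0.00192) and by 0.86 ± 0.129 in TBM over PSM (1.82-fold, adjusted p = 0.00124), and both calls held when any 1 array was left out. The difference between CNH and TBM was -0.08 (95% interval -0.37 to 0.21).

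Gapdh, the dehydrogenase one step earlier, was 0.29 ± 0.119 higher in CNH than in PSM (adjusted p = 0.129) and 0.30 ± 0.119 higher in TBM than in PSM (adjusted p = 0.137), not called. It measured 12.50, 12.58 and 12.21 in CNH, 12.53, 12.67 and 12.13 in TBM, and 12.42, 12.35 and 11.66 in PSM. Gapdh was lowest in PSM within each replicate number.

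Phosphoglycerate mutase has a widely used form, Pgam1, and a muscle form, Pgam2. Pgam1 was 9.08 ± 0.171 in CNH, 9.27 ± 0.263 in TBM and 9.10 ± 0.058 in PSM (SD, n = 3), and differed by -0.02 ± 0.152 in CNH over PSM and by 0.17 ± 0.152 in TBM over PSM. Pgam2 was 5.18, 5.26 and 6.53 in CNH, 4.35, 4.29 and 5.28 in TBM, and 4.30, 4.44 and 5.52 in PSM. It was detected on 3 CNH arrays, 1 TBM array and 1 PSM array, and so was tested only because CNH was bright. Its replicate 3 arrays were 1.30, 0.96 and 1.15 above the mean of replicates 1 and 2 in CNH, TBM and PSM, and CNH was the highest region within each number.

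Pgam2 rose in CNH over PSM (0.90 ± 0.115, adjusted p = 0.000358) and in CNH over TBM (1.02 ± 0.115, adjusted p = 0.00453), in each case against a region where 1 of 3 arrays detected it, so no fold is given. It was the only member called between CNH and TBM, and TBM differed from PSM by -0.11 ± 0.115. The size of both differences depended on the handling of dim signals: both calls were lost without background correction (0.43 and 0.49), with an offset of 50 (0.47 and 0.53) and on the deposited normalized values (0.15 and 0.17). Both neural tube markers tested and all 3 notochord markers tested were also higher in CNH than in TBM, among them Shh (2.00, adjusted p = 0.0107) and Sox2 (1.53, adjusted p = 0.0123). All 3 CNH arrays detected 2 neural tube and 3 notochord markers, and all 3 TBM arrays detected 1 and 2. These counts are thus in part set by the filter on dim probes, as for Pgam2. The summed signal of the neural tube markers (linear, background corrected, brightest probe of each gene) was 182 to 198 in CNH, 66.1 to 90.1 in TBM and 45.7 to 92.7 in PSM, and that of the notochord markers was 1130 to 2550 in CNH, 222 to 992 in TBM and 654 to 2320 in PSM. The neural markers Sox1, Sox3, Pax6, Olig2 and Neurog2 and the notochord marker Foxa2 were not detected in any of the 3 regions, and the part of these tissues in the Pgam2 difference was not tested.

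Of the enolases, Eno3 showed the largest difference of all members from PSM in both comparisons. Eno3 encodes the beta subunit known from muscle, which forms phosphoenolpyruvate. It measured 9.62, 9.57 and 9.30 in CNH, 9.08, 9.28 and 9.07 in TBM, and 8.24, 8.22 and 7.96 in PSM. The 3 regions did not overlap, in the order CNH, TBM, PSM. The rise was 1.36 ± 0.109 in CNH over PSM (2.56-fold, adjusted p = 1.76e-05) and 1.00 ± 0.109 in TBM over PSM (2.00-fold, adjusted p = 0.00017), while CNH and TBM differed by 0.35 ± 0.109 (adjusted p = 0.198). Both calls against PSM held under all 21 alternatives, but on the deposited normalized values the differences were smaller, 0.83 in CNH over PSM and 0.60 in TBM over PSM.

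Muscle markers were read beside Eno3 and Pgam2. Of the 5 tested in CNH over PSM, 1 rose, Tnnt1 (1.38, adjusted p = 2.05e-05), and 1 fell, the cardiac actin Actc1. The background was 7.43% called higher and 4.85% called lower, so these counts are no result about the list. Actc1 was at least 2.53-fold lower in CNH than in PSM (adjusted p = 2.08e-05). It was detected on no CNH array and could hardly go the other way. The summed signal of the muscle markers was 301 to 846 in CNH, 206 to 665 in TBM and 207 to 501 in PSM. Myf5, Myod1, Acta1 and Chrna1 were detected on no array. The part of muscle cells in the Eno3 and Pgam2 differences was not tested. Eno2, the neuronal enolase, was detected on 3 arrays and not tested. Eno1 has no annotated probe, and a probe of Eno1b, a near-identical retrotransposed copy that may share its signal, differed by 0.18 in CNH over PSM (adjusted p = 0.415) and by 0.42 in TBM over PSM (adjusted p = 0.0728).

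Pkm encodes pyruvate kinase, the last step. Its brighter probe measured 12.67, 12.66 and 12.22 in CNH, 12.64, 12.69 and 12.17 in TBM, and 12.40, 12.31 and 11.65 in PSM. Within each replicate number PSM was the lowest, but the replicate 3 arrays of CNH and TBM overlapped with PSM replicates 1 and 2. The difference was 0.40 ± 0.109 in CNH over PSM (1.32-fold, adjusted p = 0.0296) and 0.38 ± 0.109 in TBM over PSM (1.30-fold, adjusted p = 0.0446), under the fold limit in both. A dimmer tested probe of Pkm gave 0.06 in CNH over PSM.

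Lactate formation rested on 1 tested gene. Ldha encodes the subunit of lactate dehydrogenase that favours lactate. It measured 13.47, 13.50 and 13.06 in CNH, 13.47, 13.55 and 13.31 in TBM, and 12.91, 13.04 and 13.18 in PSM. TBM lay above PSM on every array, and CNH replicate 3 fell among the PSM arrays. Ldha differed by 0.30 ± 0.138 in CNH over PSM (1.23-fold, adjusted p = 0.175) and by 0.40 ± 0.138 in TBM over PSM (1.32-fold, adjusted p = 0.0942), and was not called.

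Ldhb, the other lactate dehydrogenase subunit, and the lactate carriers Slc16a1 and Slc16a3 were not tested. Ldhb was detected on 3 arrays and averaged 4.61 ± 0.290 in CNH, 4.71 ± 0.354 in TBM and 4.76 ± 0.232 in PSM (SD, n = 3). Slc16a1 was detected on 0 arrays and each probe of Slc16a3 on at most 2. Differences in lactate export genes were not detectable at these signals.

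At the branch into the citrate cycle, Pdha1 and Pdhb encode subunits of pyruvate dehydrogenase, and the Pdk genes encode the kinases that inactivate it. Pdha1 measured 9.54, 9.45 and 8.54 in CNH, 9.39, 9.62 and 8.74 in TBM, and 9.41, 9.45 and 9.15 in PSM, a difference of -0.16 ± 0.150 in CNH over PSM. Pdhb differed by 0.03 ± 0.192 in CNH over PSM and by -0.25 ± 0.192 in TBM over PSM, with its replicate 3 arrays at -3.34, -2.79 and -2.25 relative to the mean of replicates 1 and 2 in CNH, TBM and PSM. The other tested Pdhb probe, detected on all 9 arrays, differed by -0.004 ± 0.104 in CNH over PSM. In TBM over PSM that probe differed by -0.23 ± 0.104 (adjusted p = 0.206) and was lower in each replicate number. Neither gene was called in any comparison.

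Pdk1, the kinase best known as a target of the hypoxia factor Hif1a, measured 6.70, 6.67 and 6.59 in CNH, 6.57, 6.34 and 6.63 in TBM, and 6.05, 6.29 and 6.06 in PSM. Every CNH and TBM array was above every PSM array. It was 0.52 ± 0.126 higher in CNH than in PSM (1.43-fold, adjusted p = 0.0173), short of the fold limit, and was called at 0.64 without PSM replicate 2. In TBM over PSM it was 0.38 ± 0.126 (adjusted p = 0.0811). Pdk3, a kinase of the same family, differed by 0.05 ± 0.147 in CNH over PSM, and Pdk2 was detected on 0 arrays.

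**Figure D3:**
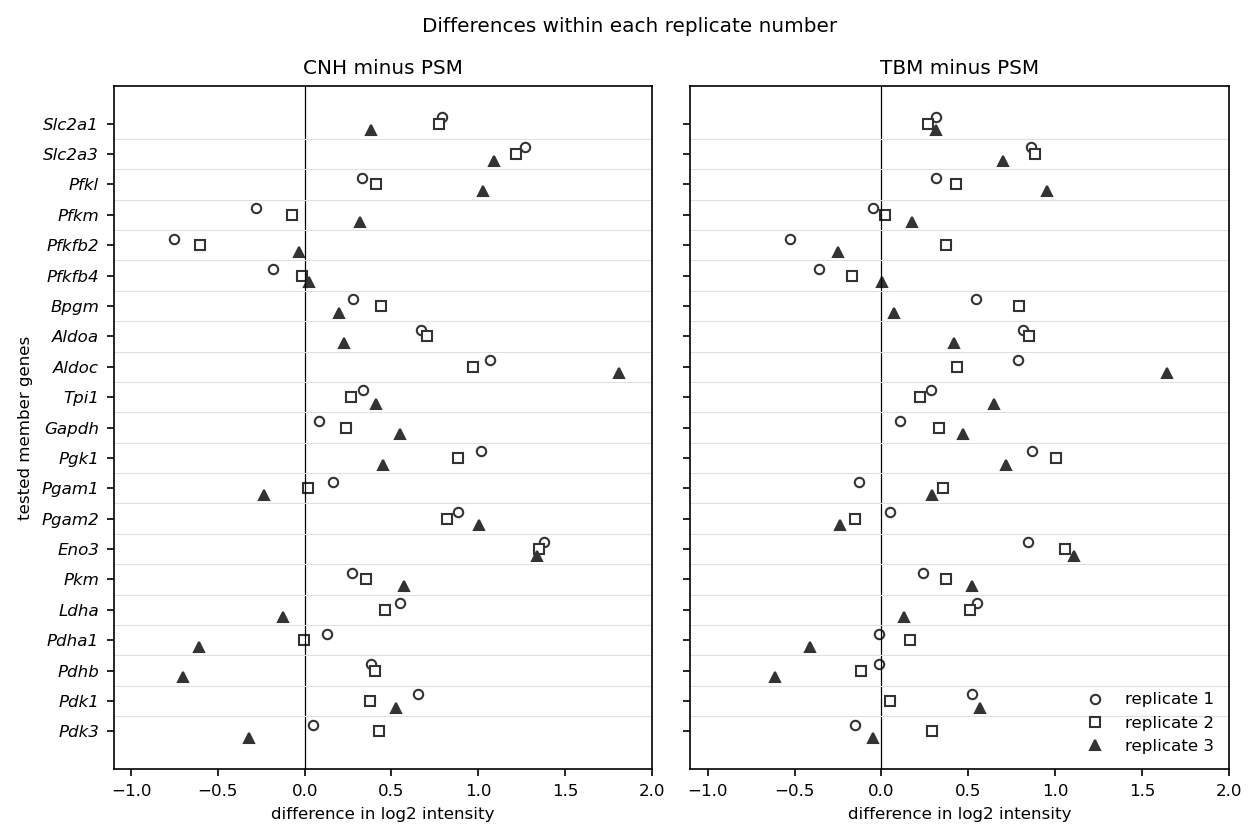
Difference in log2 intensity from PSM within each replicate number, CNH minus PSM on the left and TBM minus PSM on the right, for the 21 tested member genes in pathway order. Circles, squares and triangles are replicates 1, 2 and 3. For Eno3 the 3 CNH differences nearly coincide, and Aldoc has its largest differences in replicate 3. In CNH minus PSM, Pfkm, Pfkfb4, Pgam1, Ldha, Pdha1, Pdhb and Pdk3 have a replicate 3 value on the other side of 0 from at least 1 other replicate.

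Read within replicate numbers, 13 of the 21 genes were higher in CNH than in PSM in all 3 numbers, against a background of 22.1% of all named genes, and 13 were higher in TBM than in PSM (background 23.3%). The median of the 21 differences was 0.33, 0.41 and 0.38 for CNH minus PSM in replicates 1, 2 and 3, and 0.29, 0.36 and 0.31 for TBM minus PSM. The median was above 0 in each replicate number. Counting arrays that do not overlap at all, 7 genes had every CNH array above every PSM array (background 7.43%) and 0 had every CNH array below (background 7.05%). For TBM and PSM these counts were 8 (background 6.66%) and 0 (background 6.65%), and for CNH above TBM 2 (background 2.92%), Slc2a3 and Eno3.

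Steps of the pathway differed in how many genes were called. In CNH over PSM, 2 of 2 tested transport genes rose, 1 of 2 phosphofructokinase genes, 0 of 3 side-branch genes, 1 of 3 genes of aldolase and triose phosphate, 3 of 6 genes from Gapdh to Pkm, 0 of 1 lactate genes and 0 of 4 genes of the pyruvate dehydrogenase branch. In TBM over PSM the counts along the same steps were 1 of 2, 0 of 2, 0 of 3, 2 of 3, 2 of 6, 0 of 1 and 0 of 4. Over all named genes, 7.43% were called higher in CNH over PSM and 5.92% in TBM over PSM. With 1 to 6 tested genes per step, a count of 0 is no result about that step. Differences between steps were not tested.

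Promoter sequences are shown because several of these genes are known targets of hypoxia-inducible factor, whose core site reads ACGTG or GCGTG. RefSeq windows of GRCm38.p6 matched by symbol for 33 of the 34 members, all but Slc2a3, and the 250 bases before the start were searched on both strands (on the other strand the letters read CACGT and CACGC, and CACGTG counts as 2 overlapping matches). Slc2a1, Pgk1 and Eno3 were called, Pgam2 was called and holds no match, and Ldha was not called and holds 5 in the window shown. A second Ldha window, not shown, holds 1 match. Each window shown runs 5′ to 3′ on the gene's strand, and capitals mark the matches:

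Slc2a1 (chr4:119108495-119108744, strand +): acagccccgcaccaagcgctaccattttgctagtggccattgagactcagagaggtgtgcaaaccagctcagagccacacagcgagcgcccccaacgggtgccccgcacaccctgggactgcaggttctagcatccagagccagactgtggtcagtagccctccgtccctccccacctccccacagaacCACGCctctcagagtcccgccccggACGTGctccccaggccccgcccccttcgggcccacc
Pgk1 (chrX:106186850-106187099, strand +): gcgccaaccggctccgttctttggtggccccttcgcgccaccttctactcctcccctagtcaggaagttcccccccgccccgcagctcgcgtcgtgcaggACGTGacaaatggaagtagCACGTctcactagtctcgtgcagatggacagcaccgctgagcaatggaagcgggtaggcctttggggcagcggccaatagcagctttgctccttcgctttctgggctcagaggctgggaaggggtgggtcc
Eno3 (chr11:70656926-70657175, strand +): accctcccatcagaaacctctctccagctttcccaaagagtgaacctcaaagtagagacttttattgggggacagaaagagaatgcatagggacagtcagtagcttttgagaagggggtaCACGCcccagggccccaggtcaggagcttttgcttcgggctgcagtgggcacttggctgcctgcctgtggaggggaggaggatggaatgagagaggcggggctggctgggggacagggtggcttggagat
Pgam2 (chr11:5803797-5804046, strand -): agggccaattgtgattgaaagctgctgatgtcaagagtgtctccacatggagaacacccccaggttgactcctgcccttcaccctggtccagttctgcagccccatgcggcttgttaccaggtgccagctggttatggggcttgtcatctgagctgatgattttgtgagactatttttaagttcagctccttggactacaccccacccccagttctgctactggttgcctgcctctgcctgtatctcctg
Ldha (chr7:46845554-46845803, strand +): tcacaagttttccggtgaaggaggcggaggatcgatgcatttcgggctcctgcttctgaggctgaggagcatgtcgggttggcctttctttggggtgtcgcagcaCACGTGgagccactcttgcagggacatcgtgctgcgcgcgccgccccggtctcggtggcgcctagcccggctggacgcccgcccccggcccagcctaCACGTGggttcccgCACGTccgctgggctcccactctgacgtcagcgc

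In Slc2a1 the matches begin 61 and 36 bases before the start, in Pgk1 150 and 131 bases, and in Eno3 130 bases before it. At least 1 match was found in 6 of 7 called members with a window (85.7%), in 11 of 13 tested members that were not called (84.6%) and in 10 of 13 that were not tested (76.9%). Over all named genes tested, 4045 of 6383 with a window had one (63.4%), and over all genes with RefSeq windows 11226 of 27025 did (41.5%). In these shares a gene counts if any of its windows holds a match, so a gene with more windows counts more readily. Counted by window, 12679 of 32851 held one (38.6%). The motifs hold a CG pair. In the window richest in CG pairs of each gene, the median count of such pairs was 16 over members and 18 over all tested genes. A match is a description of letters in this window and was not related to the fold changes by a test.

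Neighbouring pathways were read from further gene lists. The background was 7.43% called higher and 4.85% called lower in CNH over PSM, and 5.92% and 4.54% in TBM over PSM. With so few tested genes per list, the counts are no result about these lists. Among 7 tested genes of other glycolysis and pyruvate steps, 1 rose in CNH over PSM, Pgm1, a phosphoglucomutase that links glycogen with glycolysis. It measured 11.36, 11.37 and 12.04 in CNH, 11.40, 11.33 and 11.89 in TBM, and 10.59, 10.50 and 10.97 in PSM, and was 0.90 higher in CNH (adjusted p = 0.000235) and 0.86 higher in TBM (adjusted p = 0.000414) than in PSM. Of 5 glycogen genes, 1 rose in CNH over PSM, the glycogen-targeting phosphatase subunit Ppp1r3c (0.64, adjusted p = 0.00344), and 0 of 5 were called in TBM over PSM. Of 5 genes of the pentose phosphate pathway, 1 fell in CNH over PSM, Rpia, which isomerises ribose 5-phosphate (-0.77, adjusted p = 0.00121), and 0 of 5 were called in TBM over PSM.

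None of the 14 tested citrate cycle genes was called by limma in CNH over PSM or in TBM over PSM. The background was 7.43% called higher and 4.85% called lower in CNH over PSM, and 5.92% and 4.54% in TBM over PSM. With 14 genes, a count of 0 is thus no result about the list. At an unadjusted limma p under 0.05, 0 of these genes were higher in either comparison (background 16% and 14.3%). At that limit 2 were lower in CNH and 1 in TBM (background 16.6% and 12.6%). Their median fold change was -0.17 in CNH over PSM and -0.05 in TBM over PSM, with a range of -0.38 to 0.19 in CNH over PSM. The difference between this list and the glycolysis genes was not tested.

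Hypoxia targets outside glycolysis were called both ways, in counts too small to be a result about the list. Of 12 tested, 2 rose and 1 fell in CNH over PSM: Bnip3l, a mitophagy receptor (0.60, adjusted p = 0.004995), the repressor Bhlhe40, and Cited2, an inhibitor of Hif1a activity (-1.21, adjusted p = 0.000687). Bhlhe40 measured 7.08, 7.04 and 6.64 in CNH and 6.83, 6.60 and 7.07 in TBM, and 4.39, 4.29 and 4.29 in PSM, where it was detected on no array. It was at least 3.98-fold higher in CNH and at least 3.75-fold higher in TBM than in PSM. Bhlhe40 was thus tested only through CNH and TBM, and could hardly go the other way. In TBM over PSM, 1 rose and 2 fell, Cited2 (-1.06, adjusted p = 0.00192) and Ddit4, a stress-induced inhibitor of mTORC1 (-0.87, adjusted p = 0.000414). The background was 7.43% called higher and 4.85% called lower in CNH over PSM, and 5.92% and 4.54% in TBM over PSM. The median of the list was -0.04 in CNH over PSM and 0.04 in TBM over PSM, and 0 of 5 tested regulators of glycolysis genes were called in either (unadjusted p under 0.05: 0 higher and 1 lower in CNH, 0 higher and 2 lower in TBM).

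Some markers of blood and vessels also rose in CNH and TBM over PSM, and none fell. The background was 7.43% called higher and 4.85% called lower in CNH over PSM, and 5.92% and 4.54% in TBM over PSM. Of 7 erythroid markers tested, 3 rose in CNH over PSM, Epor (0.86, adjusted p = 0.00087), Alas2 (0.78, adjusted p = 0.000512) and Klf1 (0.66, adjusted p = 0.00348), and 2 rose in TBM over PSM. Their summed signal was 92200 to 102000 in CNH, 90800 to 95400 in TBM and 73800 to 88500 in PSM, with Gata1 detected on no array. Of 11 endothelial markers tested, 7 rose in CNH and 5 in TBM over PSM, with a summed signal of 7730 to 8180 in CNH, 6740 to 8200 in TBM and 3610 to 4450 in PSM, and Erg and Tie1 detected on no array. The median fold changes of the endothelial list were 0.83 in CNH and 0.52 in TBM over PSM, and of the erythroid list 0.53 and 0.37. In pooled tissue, fewer cells of a type and less RNA per cell cannot be told apart, and the part of blood and vessel cells in the glycolysis differences was not tested.

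**Figure D4:**
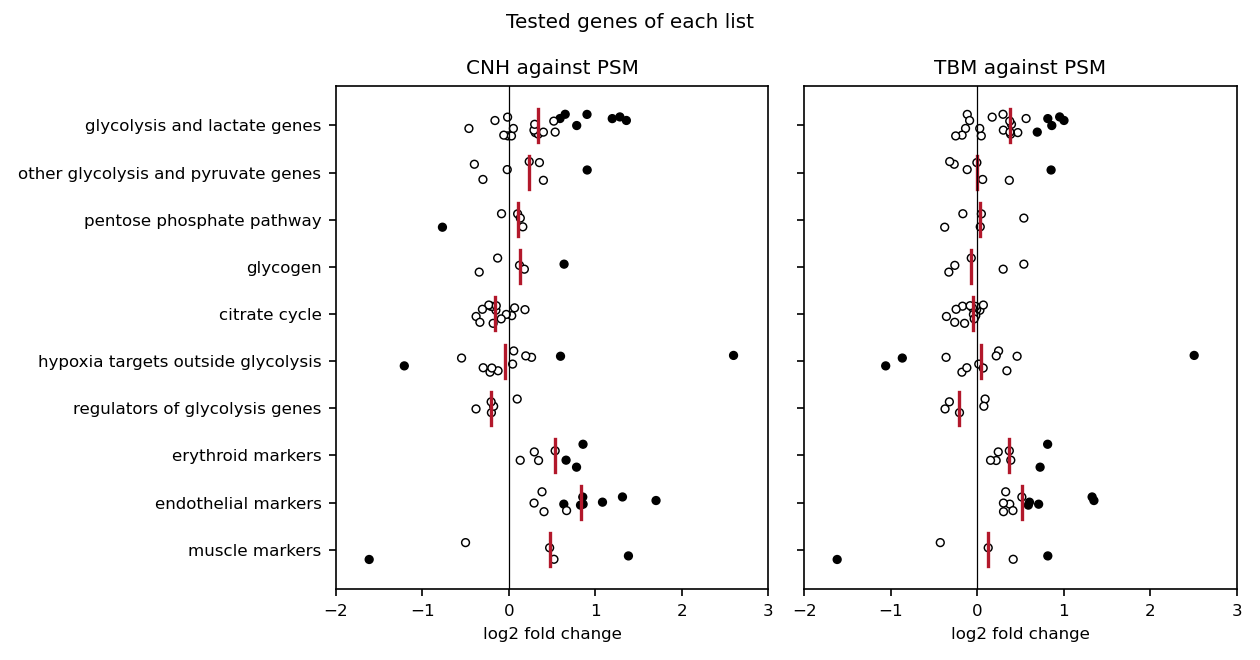
Log2 fold change of every tested gene in the glycolysis and lactate list and in 9 other lists, CNH against PSM on the left and TBM against PSM on the right. Filled points were called and red bars are medians. The glycolysis list has its median at 0.34 and 0.38, the citrate cycle list at -0.17 and -0.05 with no filled point, and the endothelial list at 0.83 and 0.52.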

How the data were processed

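Expression was measured on 9 Illumina mouse Ref6v2 arrays, 3 each for CNH, TBM and PSM. The first deposited table, which the authors exported without normalization, gives every probe's signal intensity on every array. Beside each intensity stands a deposited detection p-value against the negative controls of that array. The second deposited table holds the same arrays after a variance-stabilising transform (VST) and robust spline normalization (RSN), done by the authors in lumi. The authors thereby deposited values on a log2-like scale, which were used only as an alternative. The authors tested with limma, with replicate group and batch effects in the model.

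Here, the unnormalized intensities were background corrected (normexp, offset 16) and quantile normalized by the neqc method, which infers the negative controls from detection p-values, and put on the log2 scale, in R 4.3.3 with limma 3.58.1. Background correction and the offset set how far dim probes can differ, and quantile normalization sets the overall distribution equal on all arrays. A probe was tested if at least 1 region had all 3 of its arrays at a detection p under 0.01, which held for 12437 of 45281. Of the array's probes 34885 carry 1 gene symbol, 18 several and 10378 none, and symbols of the platform annotation were updated by Entrez number. The linear model fitted region means plus a term for the replicate number, with 4 residual degrees of freedom, and p-values were adjusted over all tested probes. The comparisons were CNH against PSM, TBM against PSM and CNH against TBM. Replicate numbers were read from the titles of the samples. After centring by region, arrays with the same number correlated at 0.858 to 0.964, numbers 1 and 2 at 0.863 to 0.893, and number 3 with the others at -0.93 to -0.895.

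For genes undetected throughout the dimmer region, the fold change is a lower bound, from means of log2 values in which each dim array takes the higher of its own value and the lowest detected signal. This bound concerns the means and is not a confidence limit. The number of arrays limits the precision. All 34 members were considered by name, and from each other list up to 5 called genes. The members and lists were chosen with earlier results of these data known. Promoter sequences are from RefSeq, build GRCm38.p6. The scripts were tested on simulated data. Alternatives were the replicate term, background correction, offset, filter, normalization, probe rule, deposited values, thresholds, and leaving out or averaging replicates.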

Additional observations from a re-analysis of the deposited data

How the results depend on the processing

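No fold change of a called member turned its direction under any alternative run. Of the 7 members called in CNH over PSM, 2 remained called without the replicate block, 3 on the deposited VST and RSN values (Slc2a3, Pgk1 and Eno3) and 3 at an adjusted p under 0.01 with 2-fold (Slc2a3, Aldoc and Eno3). Leaving out 1 array at a time gave 6 to 8, and averaging any pair of replicates as 1 sample gave 6 (Slc2a1 was lost with replicates 1 and 2 averaged, Pfkl with 1 and 3 or 2 and 3). Of the 5 called in TBM over PSM, 1 remained without the replicate block and 1 at an adjusted p under 0.01 with 2-fold, Eno3 in both cases, and leaving out 1 array gave 5 to 6. The 1 call between CNH and TBM, Pgam2, was lost, leaving 0, without the replicate block, without background correction, with an offset of 50, on the deposited values, and among probes detected on all 9 arrays, where Pgam2 was not tested. The cause was not tested, except that the last has fewer probes.

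The median fold change of the members in CNH over PSM was 0.24 on the deposited values, 0.23 without the filter on dim probes, 0.28 with median centring, and 0.33 to 0.40 when 1 array was left out. In TBM over PSM it was 0.29 without background correction, 0.29 with an offset of 50, 0.17 on the deposited values, 0.17 without the filter, 0.29 with median centring, 0.30 with the mean of a gene's probes, 0.28 without replicate 3 of all regions, 0.31 with replicates 1 and 3 averaged, and 0.28 to 0.38 when 1 array was left out. Between CNH and TBM it was -0.04 to 0.06 when 1 array was left out. The median of all named genes stayed within 0.1 of 0 on the log2 scale under each setting. Over single members, the side of the threshold was kept in 410 combinations of gene and setting in CNH over PSM, lost in 24 and gained in 5, in TBM over PSM 425, 9 and 5, and in CNH over TBM 435, 4 and 0. Members near background, Pgam2, Bpgm, Pfkfb2 and Aldoc, have fold changes limited by their signal, and the 9 untested genes are not shown to be equal between regions.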
